A study of Mus musculus with 768 samples.

Results

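Milk caseins vary widely from cell to cell among the luminal progenitor and secretory cells of the mouse mammary gland, and the cells at both ends of that range are compared here. The members were 73 casein-high and 73 casein-low control cells, out of 384 control wells and 768 wells in the series. They were selected in steps on measured values. Of the 384 control wells, 86.98% held at least 50000 reads and 1000 detected genes. Of the cells in these wells, 91.62% had the luminal keratin Krt8 at 10 CPM (counts scaled to an equal total) or more. Of those, 75.82% had at least 2 of the progenitor genes Kit, Elf5, Aldh1a3 and Ltf at 10 CPM, and 95.26% of the latter had fewer than 3 of the hormone-sensing genes Prlr, Foxa1, Wnt4, Pgr, Esr1, Cited1 and Areg at that level. The cells that passed were ranked by the summed CPM of Csn1s1, Csn1s2a, Csn2 and Csn3, and the top 73 and bottom 73 were taken, with 75 middle cells between them. The members were thus chosen by the levels of these genes, so their values below are a description and support nothing else.

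The series holds 1 plate of WAP-CRE; R26-tdTomato control cells and 1 plate of WAP-CRE; R26-N1ICD-EGFP cells, each with 384 single cells sorted from inguinal mammary glands of C57BL/6 mice after 3 to 4 months of lactation, as the design text words it. In both genotypes Cre is driven by the promoter of Wap, a whey protein gene of secretory alveolar cells, so that cells are marked by tdTomato in the controls, or by EGFP together with an active Notch1 intracellular domain in the other plate. Marked cells were sorted and read by Smart-Seq2, a full-length protocol without molecular barcodes. No animal is named in the labels. Each plate therefore counts as 1 sample, all comparisons are descriptions of these cells, and no test was made. Intervals for levels cover counting error of reads only. Intervals for shares of cells take cells as independent, though all share 1 plate, and neither kind covers differences between animals.

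Caseins are the main proteins of milk. Csn1s1, Csn1s2a and Csn2 encode the calcium-sensitive caseins, and Csn3 encodes kappa-casein, which coats and stabilises the casein micelle. In alveolar cells, prolactin acts through the receptor Prlr and the kinase Jak2 to activate Stat5, which drives casein genes together with the glucocorticoid receptor and the factor Elf5. Luminal progenitor cells outside lactation are known to hold low levels of casein RNA as well.

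The start regions of the caseins are shown because the cells were ranked on these genes. RefSeq windows of 300 bases around the gene start, 250 before and 50 after, were at hand for 3 of the 4 caseins, in build GRCm38.p6. The letters TTCNNNGAA, which read the same on both strands and are the textbook core of Stat5 binding sites, are in capitals. The stretches are the 250 bases before the start of Csn1s1 (chr5:87665958-87666207, plus strand), the 250 bases before the start of Csn2 (chr5:87699426-87699675, minus strand) and 29 bases around the match of Csn1s2a (chr5:87774460-87774488, plus strand).
Csn1s1: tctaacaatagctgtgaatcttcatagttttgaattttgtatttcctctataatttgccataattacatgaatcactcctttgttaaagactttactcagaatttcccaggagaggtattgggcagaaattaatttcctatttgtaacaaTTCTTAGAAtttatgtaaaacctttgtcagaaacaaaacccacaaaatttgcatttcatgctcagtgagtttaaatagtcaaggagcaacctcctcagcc
Csn2: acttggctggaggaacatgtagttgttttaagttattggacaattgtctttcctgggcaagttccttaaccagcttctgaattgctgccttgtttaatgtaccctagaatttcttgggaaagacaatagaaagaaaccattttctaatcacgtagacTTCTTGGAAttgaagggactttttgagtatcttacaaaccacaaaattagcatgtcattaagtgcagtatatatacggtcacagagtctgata
Csn1s2a: ttatagtgctTTCTTAGAAttacaatgac
The match begins 100 bases before the start of Csn1s1, 93 bases before the start of Csn2 and at base 21 of the annotated transcript of Csn1s2a. All 3 casein windows held the letters, against 8.3% of all RefSeq start windows (2726 of 32851). Of the 12 genes most like the caseins described below, 8 had a window and 0 of these held the letters. Of the 12 least like them, 9 had a window and 0 of these held the letters. The letters TTGCNNAA, a core of C/EBP sites, searched on both strands, stood in 10.8% of all windows and in 0 of the 3 casein windows. A match of letters is a description and not a site.

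The casein-high cells devoted a median of 4.39% of their reads to the 4 caseins, with a lowest of 3.31% and a highest of 18.8%. In the middle cells the share ran from 1.71% to 3.26% with a median of 2.38%. In the casein-low cells it ran from 0.0222% to 1.70% with a median of 1.10%. At the upper edge the last cell inside had 33078 CPM of casein and the first outside 32598 CPM, and at the lower edge the last outside had 17055 CPM and the first inside 16971 CPM, so the ranking cut a continuous range. Depth was alike, with a median of 232311 reads (57790 to 481144) in casein-high cells and 198086 reads (53712 to 552106) in casein-low cells. Detected genes numbered a median of 3365 (1361 to 5428) and 3410 (1890 to 6040). After each cell was thinned to 50000 reads without the caseins, the medians were 2867 and 2935, and no cell was too shallow.

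From here on, levels are CPM over totals without the 4 caseins. They count reads per gene, not per length, so levels are compared between cells and not between genes. Summed over cells, Csn1s1 stood at 23288.5 CPM in casein-high, 9023 CPM in middle and 2817 CPM in casein-low cells. Single casein-high cells held between 4565 and 102861 CPM of Csn1s1 with a median of 20518 CPM. Single casein-low cells held between 6.14 and 10788 CPM with a median of 2061 CPM, so the ranges of this single casein overlapped. Csn3 stood at 25549, 12921 and 7238 CPM in the same order, with medians of 23373 CPM in casein-high (7018 to 95534) and 5772 CPM in casein-low cells (10.01 to 15607).

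Csn2 and Csn1s2a were the more uneven members. Csn2 was summed at 6411, 2064 and 679 CPM, and single cells ran from 0 to 52111 CPM (median 3074) among the casein-high and from 0 to 7039 CPM (median 180.6) among the casein-low. Csn1s2a was summed at 3178, 974.6 and 311.8 CPM, with single cells from 0 to 41911 CPM (median 1017) and from 0 to 2981 CPM (median 72.7). Every cell of all 3 classes had reads of Csn1s1 and Csn3, while Csn1s2a was read in 65 of 73 casein-high and 43 of 73 casein-low cells, and Csn2 in 68 and 51. The high-over-low ratio, which the ranking fixes in direction, was 10.2 for Csn1s2a, 9.44 for Csn2, 8.27 for Csn1s1 and 3.53 for Csn3. Across all cells that passed, 73, 75 and 73 per class, the caseins ranked together only in part: Spearman's rho ran from 0.24 between Csn2 and Csn3 to 0.54 between Csn1s1 and Csn1s2a, over cells that share a plate.

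**Figure D1:**
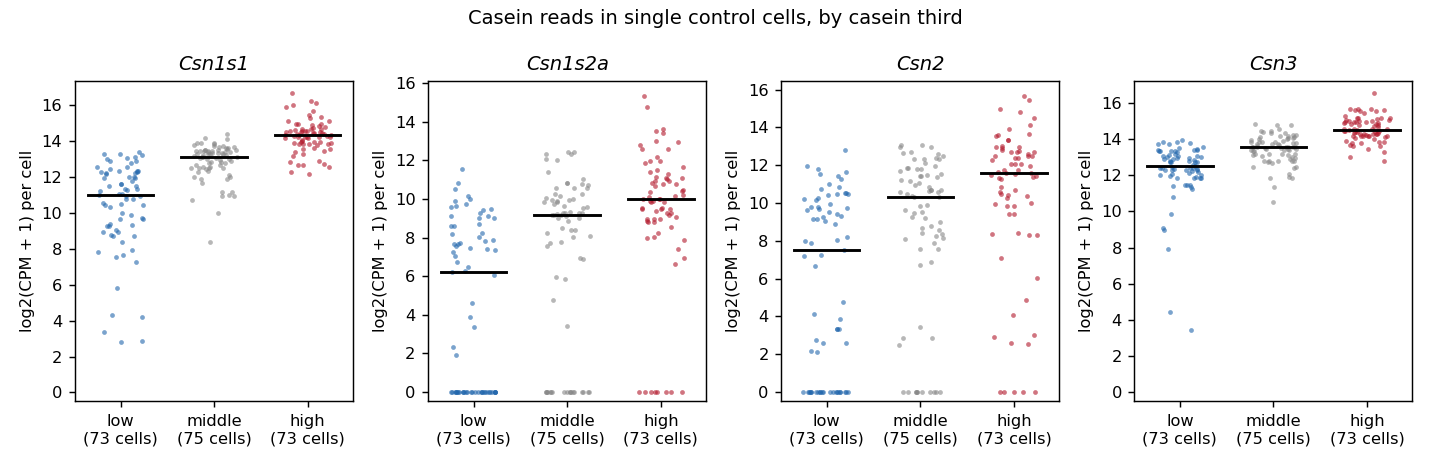
Casein levels in single control cells, as log2 of CPM plus 1 over casein-free totals, in casein-low, middle and casein-high cells, with 1 point per cell and a bar at the median. Csn1s1 and Csn3 were read in every cell, while Csn1s2a and Csn2 were at 0 in many casein-low cells.

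The makeup of the summed casein reads differed between the classes. Kappa-casein made up 43.7% of all casein reads in casein-high cells, 51.7% in middle cells and 65.5% in casein-low cells. Csn1s1 made up 39.9%, 36.1% and 25.5% in the same order, Csn2 made up 10.97%, 8.26% and 6.15%, and Csn1s2a 5.44%, 3.90% and 2.82%. These are shares of summed reads of the genes that ranked the cells, and they are compared between classes only. Single cells varied: Csn3 gave under 50% of the casein level in 42 of 73 casein-high, 42 of 75 middle and 20 of 73 casein-low cells. The median cell's share of Csn3 was 47.5%, 47.8% and 70.1% in the same order. By the median cell, casein-high and middle cells were thus alike and only the casein-low cells stood apart.

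**Figure D2:**
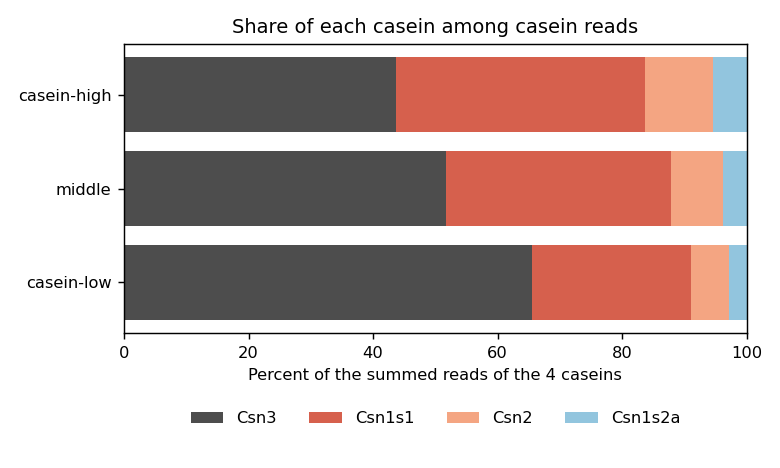
Share of each casein among the summed casein reads of casein-low, middle and casein-high control cells, in percent, with 1 stacked bar per class. The kappa-casein part, Csn3, is 65.5% in casein-low and 43.7% in casein-high cells.

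The casein-low cells still held more casein RNA than cells of other kinds. Cells of other kinds on the same plate give the background: 17 cells with the leukocyte gene Ptprc and without Krt8 held 142.3 CPM of the 4 caseins in sum (a median cell at 21.3 CPM), and 70 luminal cells with 3 or more hormone-sensing genes held 1357 CPM (a median cell at 50.8 CPM). The casein-low cells held 11046 CPM, which is 77.6 times the leukocyte level and 8.14 times the hormone-sensing level. The lowest casein-low cell held 222.2 CPM, so single cells at the bottom reached into the range of the other kinds, whose highest cells held 3130 and 39313 CPM.

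The luminal identity that the selection asked for was present at both ends. Epcam, the epithelial adhesion molecule, stood at 4063 and 3612 CPM in casein-high and casein-low cells, and Krt18, the partner keratin of Krt8, at 2254 and 2343 CPM. After thinning, both were read in 100% of casein-high and 98.6% of casein-low cells. Genes of other cell types were few but uneven. Of the 9 immune markers measured, of 16 listed, all 9 (100%) were past 1.5 times lower in casein-high cells, against 23.5% of all genes. The level summed over the list was 36.3 CPM against 740 CPM, and none of the 9 was read in 20% of the cells. Of that sum the macrophage gene Lyz2 made 450 CPM, and 1 cell gave 97.01% of its reads. Ptprc reached 10 CPM in 1 of 73 casein-high, 3 of 75 middle and 7 of 73 casein-low cells. Cells with 2 or more immune markers at 10 CPM were more even, at 7 of 73, 8 of 75 and 9 of 73 in the same order. The basal keratin and muscle genes Krt5, Krt14 and Acta2 came 2 or more together in 2 casein-high and 2 casein-low cells. Of the 8 basal markers measured, 2 (25%) were higher and 5 (62.5%) lower, against 22.2% and 23.5% of all genes. Their summed levels were 91.7 and 105.9 CPM. Their median log2 ratio of -0.97 kept its direction in only 20 of 23 alternative settings. The 2 measured markers of fibroblasts and vessels summed, with their unmeasured list members, to 12.3 and 43.7 CPM. The wells lay unevenly on the plate, with 40 casein-high and 30 casein-low cells in well columns 1 to 12.

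Over all 11146 genes at 5 CPM or more in either end, 2477 (22.2%) were at least 1.5 times higher in casein-high cells and 2623 (23.5%) at least 1.5 times lower, with a median log2 ratio of 0.01. Ratios are log2 of CPM plus 1, casein-high over casein-low. Many of those genes are read in few cells. Among the 6025 genes that 20% or more of the higher end's cells had reads of, 921 (15.3%) were higher and 925 (15.4%) lower. These shares are the background for every count below, and a count near them says nothing particular of a list. Genes were also ordered by how well their level followed the summed caseins over the 73, 75 and 73 cells, which uses the whole range. Spearman's rho for 95% of 5951 compared genes lay between -0.17 and 0.16, and the 12 highest and 12 lowest are described first. All points share 1 plate and their depth.

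The gene most like the caseins was Trf, the iron carrier transferrin, which rodents secrete into milk (rho 0.43). Its summed level was 34068 CPM in casein-high, 24588 in middle and 20938 in casein-low cells, a log2 ratio of 0.70. Single cells ran from 8039 to 74102 CPM (median 34206) at the casein-high end and from 126.8 to 56191 CPM (median 16620) at the casein-low end. The ranges overlapped, and 82.2% of casein-high cells lay above the casein-low median. Its ratio depended on which caseins ranked the cells. With the cells ranked by Csn3 alone its log2 ratio was 0.999, and ranked by Csn1s2a and Csn2 alone it was 0.02.

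Igfbp5, a secreted binding protein of insulin-like growth factors known for its rise at involution, came next (rho 0.42), at 5475, 3794 and 1956 CPM. The median cell held 4954 CPM at the casein-high end (5.31 to 21268) and 1733 CPM at the casein-low end (0 to 12503). Its log2 ratio was 1.48, and 0.38 with the cells ranked by Csn1s2a and Csn2 alone. Btn1a1, the butyrophilin of the milk fat globule membrane, was summed at 3566, 2478 and 1411 CPM, with median cells at 3230 CPM (0 to 10873) and 888 CPM (0 to 6369). Its log2 ratio of 1.34 stayed past 1.5 times under all 23 alternatives tried, the lowest being 1.02. Among them, floors of 20 CPM and 1 CPM change only which genes are counted and cannot move the ratio of a single gene. Scaling the median of all genes to 0 moves each ratio by only 0.01. Both limits hold for every gene named below. The classes overlapped in both genes, with 84.9% and 75.3% of casein-high cells above the casein-low median.

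Cst3, the protease inhibitor cystatin C, was uneven between cells: it was summed at 1834, 539 and 391 CPM, but its median cell held 493 CPM at the casein-high end (0 to 25053) and 164.9 CPM at the casein-low end (0 to 4282). The single cell with the most reads gave 18.1% of its casein-high reads. Folr1, the folate receptor known as a folate-binding protein of milk, was summed at 242.5, 71.4 and 40.3 CPM, a log2 ratio of 2.56. It was read after thinning in 56.2% of casein-high (Clopper-Pearson 95% interval 44.1 to 67.8%) and 20.5% of casein-low cells (12 to 31.6%). Folr1 was picked by its correlation with the caseins in these same cells, so these intervals are a description. Dkkl1, a secreted relative of the Dickkopf proteins, had the highest log2 ratio among these 12 genes, 3.27, at 150, 50.5 and 14.7 CPM, and was read in 50.7% and 13.7% of cells. With the cells ranked by Csn1s2a and Csn2 alone, the ratio was 0.26 for Dkkl1 and 0.35 for Cst3, both short of 1.5 times, and 1.54 for Folr1.

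Lalba encodes alpha-lactalbumin, the subunit that makes a galactosyltransferase produce lactose. It was read in 36.99% of casein-high and 8.22% of casein-low cells after thinning, at 149.1 and 29.1 CPM, and 1 casein-low cell gave 60.7% of the casein-low reads. Crispld2, a secreted glycoprotein, was read in 47.9% and 12.3% of cells at 231.6 and 122.5 CPM, with 85.6% of the casein-low reads in 1 cell. Without the cell with the most reads at each end, its log2 ratio moved from 0.91 to 3.49. Both genes were thus read in more casein-high than casein-low cells, while 1 cell carried most of their casein-low reads.

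The other 4 genes most like the caseins were read in most cells. Cck, the peptide hormone cholecystokinin, stood at 846, 433 and 235.3 CPM with median cells of 466 and 55.4 CPM. Cyb5a, cytochrome b5, an electron carrier of fatty acid desaturation, stood at 662, 340.7 and 281.4 CPM. Dbi, the acyl-CoA-binding protein, stood at 871, 647 and 451 CPM. Itm2b, a membrane protein, stood at 10191, 8249 and 7092 CPM, a log2 ratio of 0.52 that is short of 1.5 times. Cck, Cyb5a and Dbi stayed past 1.5 times under all 23 alternatives.

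The 12 genes least like the caseins were led by S100a6, a small calcium-binding protein (rho -0.44). It stood at 271.8 CPM in casein-high, 751 in middle and 978 in casein-low cells. The median cell held 111.03 CPM at the casein-high end (0 to 2031) and 722 CPM at the casein-low end (0 to 6516), and only 5.48% of casein-high cells lay above the casein-low median. Anxa1, annexin A1, a membrane-binding protein, stood at 873, 1404 and 2232 CPM, with median cells of 591 CPM (0 to 3577) and 1794 CPM (0 to 8241). Crip1, a small LIM-domain protein, stood at 92.2, 345.6 and 367.1 CPM and was read in 39.7% of casein-high and 78.1% of casein-low cells. For these 3 genes the casein-high cells formed the lower class with a long overlap. With the cells that held 2 or more immune markers left out, the log2 ratio was -1.81 for S100a6, -1.31 for Anxa1 and -2.25 for Crip1. With the cells ranked by Csn1s2a and Csn2 alone it was -0.44 for S100a6 and -0.30 for Crip1, both short of 1.5 times, and -0.92 for Anxa1.

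The other 9 genes of this side were each lower past 1.5 times. Synpo, an actin-associated protein, stood at 140.7 and 438 CPM, Ahnak, a very large scaffold protein, at 946 and 1808 CPM, Dclk1, a microtubule-associated kinase, at 89.6 and 296.6 CPM, and Tm4sf1, a membrane protein, at 1145 and 2519 CPM in casein-high and casein-low cells. Atp2b1, a calcium pump of the plasma membrane, stood at 402 and 895 CPM. The secreted proteins Gas6, a ligand of the TAM receptors, and Wfdc18, a small protein with a whey acidic protein domain, stood at 1161 and 2200 CPM and at 1725 and 3767 CPM. Cpe, carboxypeptidase E, stood at 129.2 and 633 CPM and Cryab, a small heat shock protein, at 67.9 and 217.3 CPM. Anxa1, Dclk1, Cryab, Synpo and Tm4sf1 stayed past 1.5 times under all 23 alternatives. With the cells ranked by Csn1s2a and Csn2 alone, the log2 ratio was -0.052 for Atp2b1, -0.15 for Wfdc18, -0.25 for Ahnak, -0.27 for Gas6 and -0.55 for Cpe, all short of 1.5 times. Under that ranking 5 of the 12 genes least like the caseins were past 1.5 times, and 6 of the 11 most like them that were past it as given.

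Ltf, the iron-binding defence protein lactoferrin, was one of the genes of the selection, which asked only for 10 CPM, so its pattern is a description. It stood at 5474 CPM in casein-high, 18222 in middle and 20134 CPM in casein-low cells. The median cell held 536 CPM at the casein-high end (0 to 31273) and 19471 CPM at the casein-low end (12.1 to 57558), and 8.22% of casein-high cells lay above the casein-low median. Cells under 1000 CPM of Ltf numbered 39 of 73 casein-high (53.4%, Clopper-Pearson 95% interval 41.4 to 65.2%), 16 of 75 middle and 12 of 73 casein-low cells (16.4%, 8.79 to 26.95%). With Ltf left out of the selection its log2 ratio was -1.49, against -1.88 as selected. With the cells ranked by Csn1s2a and Csn2 alone it was -0.77. Both iron-binding milk proteins thus lay on opposite sides in the ranking by all 4 caseins, Trf with the caseins and Ltf against them. Under the ranking by Csn1s2a and Csn2 alone Trf was level, with a log2 ratio of 0.02.

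**Figure D3:**
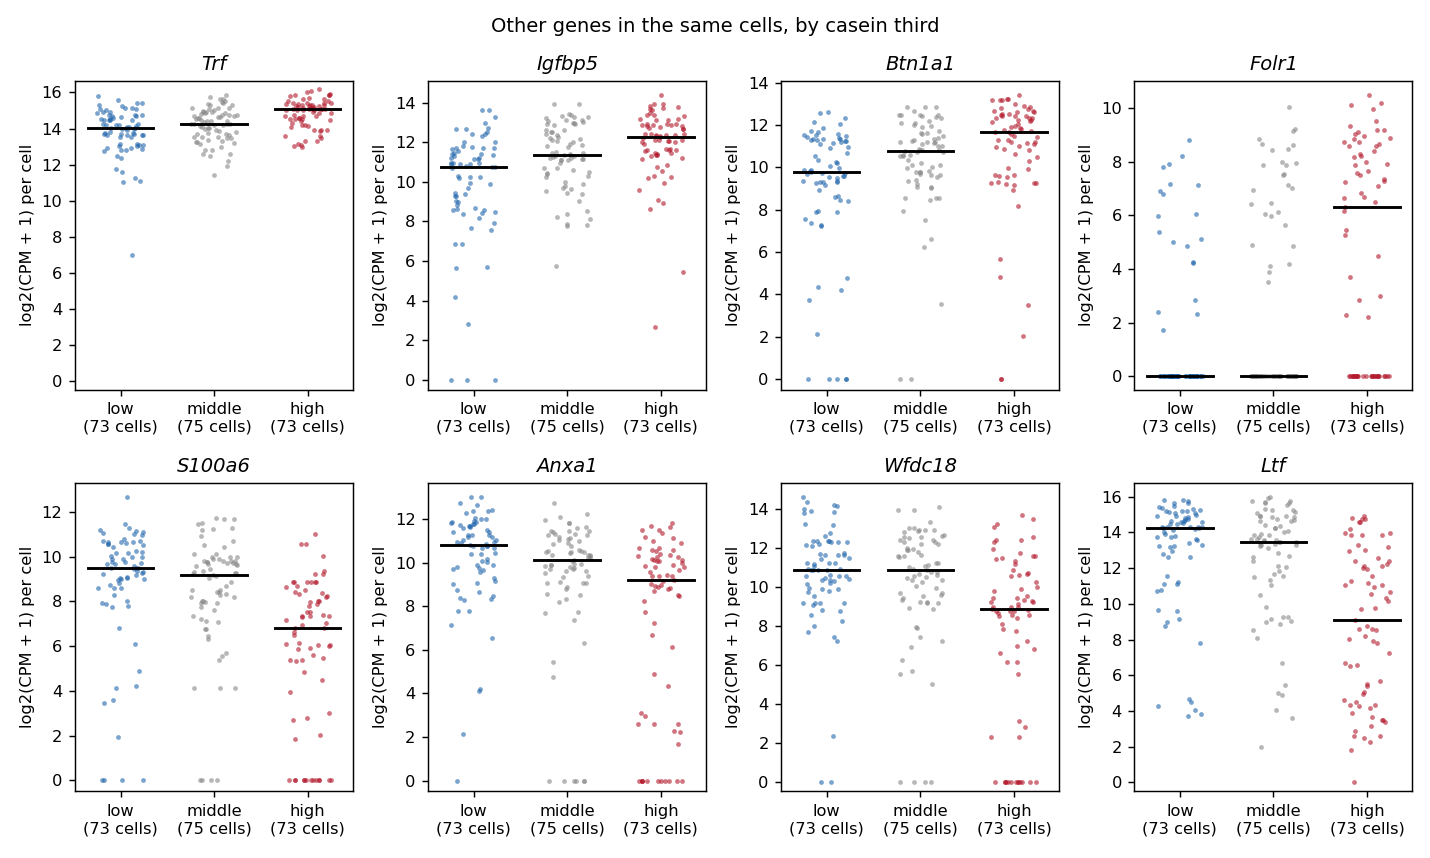
Levels of 8 genes in the same casein-low, middle and casein-high control cells, as log2 of CPM plus 1 over casein-free totals, with 1 point per cell and a bar at the median. Trf, Igfbp5, Btn1a1 and Folr1 have their highest median in casein-high cells, S100a6, Anxa1, Wfdc18 and Ltf their lowest, and all classes overlap.

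Other milk proteins were the list that moved most with the caseins. Of 12 members measured, 8 (66.7%) were at least 1.5 times higher in casein-high cells and 1 (8.33%) lower, against 22.2% and 23.5% of all genes, with a median log2 ratio of 1.02 against 0.01. The higher members included Trf, Btn1a1, Folr1, Lalba and Xdh, the xanthine oxidoreductase that butyrophilin binds on the fat globule (808 and 512 CPM). Spp1, Cel and Rnase1 were the other higher members, each with 39.9% or more of its casein-high reads in 1 cell, and Wfdc18 the lower one. Mfge8, the milk fat globule factor lactadherin, stood at 9784 and 11368 CPM, and the mucins Muc1 and Muc15 at 1095 and 1008 CPM and at 1338 and 1376 CPM, all short of 1.5 times. With the immune-marked cells left out the median was 1.04, and with the cells ranked by Csn1s2a and Csn2 alone it was 0.02. Wap stood at 2.89 and 1.45 CPM, Csn1s2b at 0.86 and 0.19 CPM and Glycam1 at 0.18 and 0 CPM, so these genes of full lactation were at or near 0 at both ends.

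Of 9 secreted defence proteins measured, Ltf left out, 1 (11.1%) was higher and 4 (44.4%) lower, against 22.2% and 23.5% of all genes. The list median was -0.20, and no values of the 4 lower members are given here. Lcn2, the iron-siderophore binder lipocalin 2, stood at 9691 and 6621 CPM, and Hp, haptoglobin, at 1164 and 607 CPM. Hp was read in 47.9% of casein-high and 53.4% of casein-low cells, so its share of cells went against its summed level.

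Lipid genes were described by 2 lists. Of 18 genes of fatty acid synthesis, 5 (27.8%) were higher and 2 lower, near the background, with a median of 0.18. Acly, which makes cytosolic acetyl-CoA, stood at 329.2 and 172.6 CPM, Srebf1, the lipogenic transcription factor, at 158.8 and 66.9 CPM, and the elongase Elovl6 at 136.6 and 31.7 CPM. Fasn, the fatty acid synthase, stood at 165.8 and 114.4 CPM and Scd1, the stearoyl-CoA desaturase, at 326.5 and 400 CPM, both short of 1.5 times. Of 14 genes of fat uptake and lipid droplets, 5 (35.7%) were higher and 2 lower, with a median of 0.42 that was above 0 under all 23 alternatives. Plin2, the coat protein of milk lipid droplets, was the only higher one read in 20% of cells, at 1565, 852 and 751 CPM. Its median cell held 1049 CPM at the casein-high end (0 to 5323) and 527 CPM at the casein-low end (0 to 3279), and its log2 ratio of 1.06 stayed past 1.5 times under all 23 alternatives.

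Of 11 genes of lactose synthesis and sugar supply, 1 (9.09%) was higher and 3 (27.3%) were lower. No values of the 3 lower ones are given here. The higher one was B4galt1, the galactosyltransferase that Lalba modifies, at 274.7 and 164.2 CPM. Of 14 transporters of ions, water and amino acids, 3 (21.4%) were higher and 0 lower. Of these 3 only the water channel Aqp5 was read in 20% of cells, at 327.2 and 189.2 CPM. The list median of the transporters was 0.32, also above 0 under all 23 alternatives. Of 11 genes of serine and amino acid synthesis, 3 were higher and 2 lower, none of them read in 20% of cells.

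Of 25 genes of the folding machinery of the endoplasmic reticulum, 8 were higher and 3 lower in casein-high cells, with a median of 0.38 that was above 0 under all 23 alternatives. Of the 19 read in 20% of cells 6 were higher and 1 lower, against 15.3% and 15.4% of all such genes. Hspa5, the main chaperone BiP, stood at 1570, 999 and 876 CPM. Pdia6, a disulfide isomerase, stood at 270, 165.3 and 91.1 CPM, with median cells of 117.6 and 0 CPM, and stayed past 1.5 times under all 23 alternatives. Xbp1, the secretory pathway factor of the unfolded protein response, stood at 950, 650 and 499 CPM, with median cells of 507 CPM (0 to 6829) and 206.7 CPM (0 to 2720). Hyou1, a chaperone of the same compartment, stood at 54.1 and 8.40 CPM, and was read in 24.7% and 13.7% of cells. The co-chaperone Dnajb11 went the other way, at 62.3 and 100.5 CPM.

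Protein entry and vesicle traffic moved less. Of 31 genes, 4 (12.9%) were higher and 1 lower, under the background. The list median was 0.24, also above 0 under all 23 alternatives. Ssr3, of the translocon-associated complex, stood at 435 and 238.6 CPM, and Sec11c, a signal peptidase subunit, at 63.8 and 134.1 CPM. Ribosomal protein genes had a median of 0.08, with 8 of 70 higher and 1 lower, and genes of oxidative phosphorylation one of 0.06, with 6 of 83 higher and 4 lower. These lists of housekeeping function lay near the median of all genes.

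For the prolactin pathway only the RNA of its genes was measured, not signalling. Of 18 members measured, 1 (5.56%) was higher and 2 (11.1%) were lower, against 22.2% and 23.5% of all genes. The list median was 0.10. Stat5a stood at 188.8 and 152.2 CPM and Stat5b at 156.4 and 141.5 CPM, with median cells of 101.6 and 48.9 CPM and of 71.4 and 30.2 CPM. The kinase Jak2 was the higher member, at 88.2 and 55.5 CPM. The receptor Prlr, a gene of the selection, stood at 142.7 and 111.1 CPM. The Stat5 targets and inhibitors Cish and Socs2 stood at 104.4 and 153.5 CPM and at 42.4 and 30.1 CPM. The inhibitor Socs3 was lower at 56.9 and 130 CPM, and so was the glucocorticoid receptor Nr3c1 at 116.04 and 246.6 CPM.

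Progenitor genes outside the selection went both ways, with 5 of 15 higher, 3 lower and a median of -0.09. Cd14, a co-receptor for bacterial lipopolysaccharide, stood at 1162 and 669 CPM, and Elf3, an epithelial Ets factor, at 210.5 and 381.5 CPM. Sox10 stood at 488 and 521 CPM and Sox9 at 488 and 495 CPM, factors of progenitor identity that were near level. Of the genes of the selection, Elf5 stood at 257.8 and 198.9 CPM, Kit at 684 and 922 CPM, Aldh1a3 at 842 and 1056 CPM and Krt8 at 592 and 840 CPM, as a description. Of 7 other hormone-sensing genes measured, 3 (42.9%) were higher and 2 (28.6%) lower, against 22.2% and 23.5% of all genes. None of these higher or lower ones was read in 20% of cells. The list median of 0.56 ran from -0.70 to 0.83 over the 23 alternatives. Of the hormone-sensing genes of the selection, 1 or 2 reached 10 CPM in 47 of 73 casein-high and 36 of 73 casein-low cells.

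Keratin and junction genes were lower in casein-high cells. Of 16 measured, 0 were higher and 7 (43.8%) lower, against 22.2% and 23.5% of all genes, with a median of -0.43. Krt7, a simple epithelial keratin, stood at 81.95 and 180 CPM and was read in 38.4% and 67.1% of cells. Cdh1, E-cadherin of the adherens junction, stood at 242.4 and 398 CPM. Of the tight junction genes, Ocln stood at 99.6 and 228.05 CPM, Cldn4 at 89.6 and 190 CPM and Cldn8 at 182.6 and 343.7 CPM. Dsp, of the desmosome, stood at 70.3 and 116.1 CPM. Krt19 stood at 2920 and 3295 CPM, so the abundant keratins Krt18 and Krt19 were not past 1.5 times. The list median was below 0 under all 23 alternatives, between -0.55 and -0.08.

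**Figure D4:**
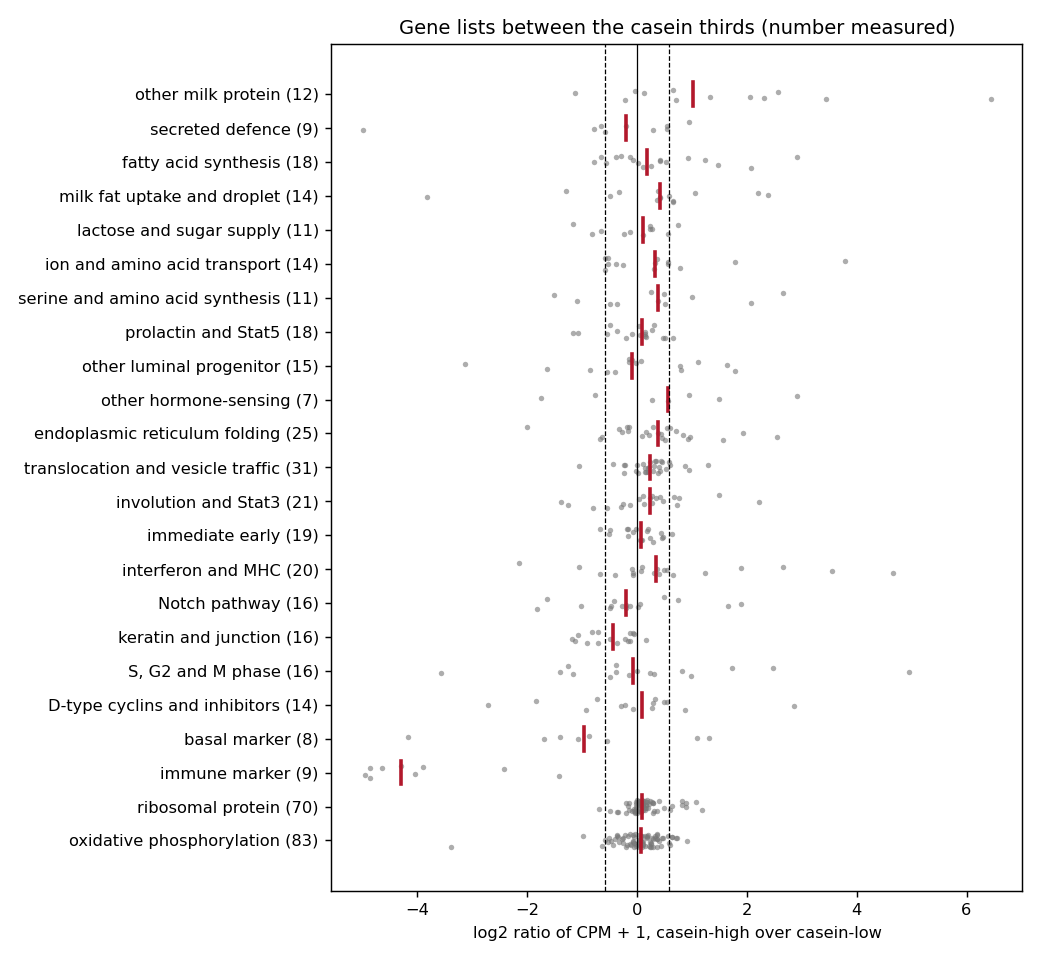
The log2 ratio, casein-high over casein-low, of each measured member of 23 gene lists, with 1 grey point per gene, a red bar at the list median and dashed lines at 1.5 times. Other milk proteins have a median of 1.02 and keratin and junction genes one of -0.43, and the immune markers at the far left rest on few cells.

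Genes of involution and its factor Stat3 numbered 21 measured, of which 5 (23.8%) were higher and 3 lower. The list median was 0.23, also above 0 under all 23 alternatives. Beside Igfbp5 and Cst3 the higher ones were the receptor genes Osmr at 452 and 284.5 CPM and Il6st at 107.4 and 62.7 CPM, and Bax. Stat3 stood at 575 and 433 CPM and Clu, the secreted chaperone clusterin, at 5687 and 5525 CPM. Of 19 immediate early genes, which respond to tissue dissociation, 1 was higher and 1 lower, with a median of 0.07. Fos stood at 12938 and 12165 CPM, Egr1 at 2796 and 2018 CPM and Jun at 1545 and 995 CPM. Of 20 interferon and antigen presentation genes, 6 were higher and 3 lower, and the 5 higher ones not read in 20% of cells had at least 67.7% of their reads in 1 cell.

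Notch pathway genes, of interest because the other plate carries active Notch1, went both ways: 3 of 16 were higher and 3 lower, with a median of -0.21. The target Hey1 stood at 692 and 412 CPM with median cells of 258.5 and 65.95 CPM, while the target Hes1 stood at 208.3 and 228.7 CPM and the receptor Notch1 at 352.97 and 251.9 CPM. Maml2, a co-activator, and Nrarp, a feedback inhibitor, were lower, at 56.6 and 180 CPM and at 22.8 and 47.3 CPM. The choline transporter Slc5a7 stood at 137.4 and 157.8 CPM. The transcript of the Rosa26 locus, Gt(ROSA)26Sor, stood at 116.6 and 102.5 CPM.

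Cycling genes were sparse at both ends. Of 16 S, G2 and M phase genes measured, 5 were higher and 4 lower, and none of these 9 was read in 20% of cells. Among 14 cyclins and inhibitors, 2 were higher and 4 lower. Ccnd1, cyclin D1, stood at 317.5 and 607 CPM, and Cdkn1a, the inhibitor p21, at 16.3 and 60.9 CPM.

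The genes with the steepest ratios were mostly read in few cells. The rule that picked them asked that the share of cells with a read go in the direction of the ratio. The direction of the shares given here was thus fixed by the rule. By the fixed rule, the 14 highest were Dkkl1, Exoc6, Tex10, Vav2, Tecpr1, Folr1, Hyou1, Agt, Taf4b, Rcl1, Pnpla7, Auh, B3gnt2 and Lalba. Apart from Dkkl1, Folr1 and Lalba they were read after thinning in 20.5% to 27.4% of casein-high cells, and their median cells were at 0 at both ends. Agt, angiotensinogen, stood at 92.8 and 15.3 CPM and B3gnt2, a poly-lactosamine synthase, at 97.2 and 18.3 CPM. The 14 lowest were Palmd, Osbpl3, C1galt1, Lama3, Itih5, Lyrm9, Emp1, Nbn, Cpe, Rbpms, Rbms3, Fadd, Trim37 and Usp54. Lama3, a laminin chain of the basement membrane, stood at 8.42 and 73.7 CPM, and was read in 16.4% of casein-high and 36.99% of casein-low cells. Emp1, an epithelial membrane protein, stood at 38.1 and 228.6 CPM, and was read in 9.59% and 43.8% of cells. Osbpl3, an oxysterol-binding protein, stood at 7.80 and 81.3 CPM, and was read in 8.22% and 38.4% of cells.

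The same selection was then applied to the N1ICD-EGFP plate, whose cells the ranking above did not use. It gave 52 casein-high, 53 middle and 52 casein-low cells. Caseins were far lower there: the casein-high cells held 8490 to 42006 CPM (median 14723) and the casein-low cells 0 to 224.4 CPM (median 3.20), with 16 cells that had no casein read. The ends therefore lay at other levels than in the control plate. Of 11088 genes measured in that plate, 25.98% were higher and 30.84% lower past 1.5 times. The plates differ in genotype, reporter and preparation, which cannot be told apart.

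All 12 genes most like the caseins in control cells were higher in the casein-high cells of the N1ICD-EGFP plate too, and 11 of them were past 1.5 times, while Lalba was under 5 CPM at both ends. Their rho with the caseins over those 52, 53 and 52 cells was above 0 in all 12. Trf had a rho of 0.79 there and stood at 26480 and 1826 CPM, a log2 ratio of 3.86 against 0.70 in the control plate. Igfbp5 stood at 2266 and 354.4 CPM (rho 0.55), Itm2b at 9751 and 4882 CPM (rho 0.51), Btn1a1 at 1037 and 357.996 CPM (rho 0.27) and Folr1 at 73.9 and 2.09 CPM (rho 0.34). Lalba stood at 3.55 and 0.17 CPM. Of the 12 genes least like the caseins, 11 were lower in the casein-high cells and 7 of them past 1.5 times, and rho was below 0 in all 12. S100a6 stood at 145.99 and 720 CPM, Anxa1 at 1339 and 3253 CPM (rho -0.47), Crip1 at 115.3 and 564 CPM and Wfdc18 at 1455 and 4780 CPM. Synpo, at 336.7 and 314.7 CPM, was the exception in direction. Ahnak, Cpe and Gas6 were nearly level, with log2 ratios between -0.14 and -0.03. Ltf, which ran against the caseins in control cells, had a log2 ratio of 0.21.

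**Figure D5:**
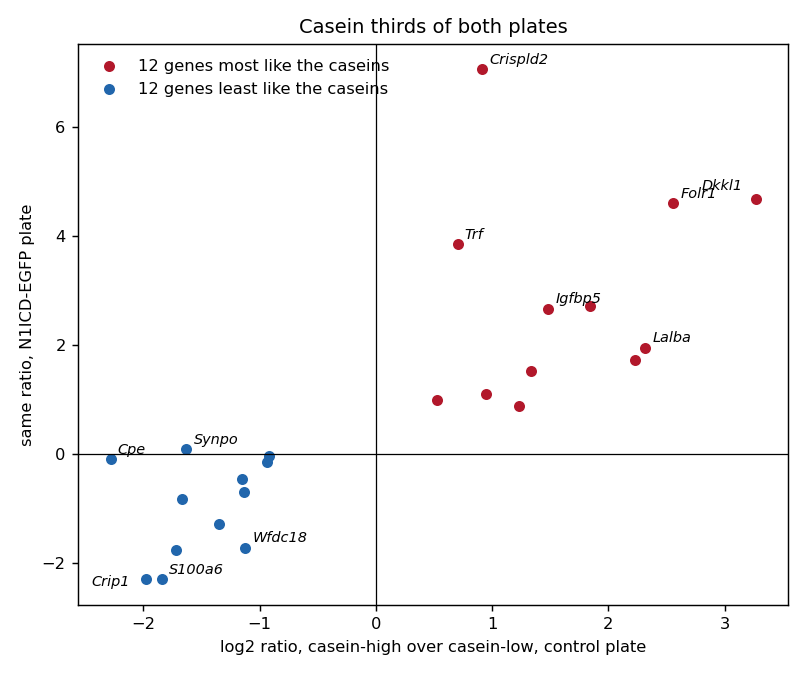
The log2 ratio of casein-high over casein-low cells in the control plate (horizontal) and in the N1ICD-EGFP plate (vertical) for the 12 genes most like the caseins (red) and the 12 least like them (blue), with 1 point per gene. All 12 red genes are above 0 in both plates, and 11 of the 12 blue genes are below 0 in both.

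The lists differed between the plates in places. Over all genes of the N1ICD-EGFP plate, 25.98% were higher and 30.84% lower past 1.5 times. Its casein ends lay at other levels than those of the control plate, so the medians below come from unlike contrasts. How many cells of that plate read the members is not given here. Other milk proteins had 9 of 12 higher and 3 lower in the N1ICD-EGFP plate, with a median of 1.503, and keratin and junction genes 0 of 16 higher and 5 lower, with a median of -0.19. The folding genes of the endoplasmic reticulum had a median of 0.05, against 0.38 in control cells. Prolactin and Stat5 genes had 11 of 18 higher and 0 lower with a median of 0.92, against 0.10 in control cells, and S, G2 and M phase genes had 2 of 19 higher and 13 lower with a median of -1.18, against -0.07. None of these differences between plates was tested, since each plate is 1 sample.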

How the data were processed

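The authors deposited raw counts of reads for each gene in each well, from 1 Smart-Seq2 plate of 384 wells per genotype. Reads were aligned with STAR to mm10, per the submitters' processing notes. How reads were counted, with which annotation and whether by strand, is not given in the sources used here, so overlapping, antisense and near-identical genes cannot be told apart. Full-length reads give long genes more counts, and reads without molecular barcodes are not independent molecules. The 24490 rows include 492 with a repeated gene name, which were added to the row of that name, and an eGFP row, which was set apart.

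Members and gene lists were chosen with earlier results of these data known. Counts of each class were summed and scaled to CPM without the caseins and eGFP. Ratios are log2 of CPM plus 1, and a gene at 5 CPM or more at either end was called past 1.5 times. Sums have exact Poisson and shares exact Clopper-Pearson 95% intervals. Named genes are the 12 highest and 12 lowest Spearman correlations with the caseins and the 14 highest and 14 lowest ratios. They also include the 3 steepest list members either way, not all of which are given in the text, and a fixed set. The 14 highest and 14 lowest ratios were taken from 20 CPM, with a read in 20% of cells thinned to 50000 reads. They also had at most 25% of reads in 1 cell. Their direction had to be the same in the mean of per-cell CPM and in the thinned share of cells with a read. It also had to be the same in well columns 1 to 12 and 13 to 24. Other genes were named as list members after their values were seen, and 1 list member is counted but not reported by name here. No doublets were called, and an alternative left out cells with many genes. Simulated data were used to test that planted ratios come back in the median. They were not used to check how often unchanged genes pass 1.5 times. Python 3.11.15, numpy 2.4.6, pandas 2.3.3 and scipy 1.17.1 were used, with 21 alternatives planned and 2 added after seeing the data.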

Additional observations from a re-analysis of the deposited data

Results flagged for a closer look

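The genes with the steepest ratios in control cells were set beside the casein ends of the N1ICD-EGFP plate, where 25.98% of all genes were higher and 30.84% lower past 1.5 times. Of the 14 highest, 13 reached 5 CPM there, of which 6 (46.2%) were higher and 4 (30.8%) lower. Of the 14 lowest, 7 (50%) were lower and 3 (21.4%) higher. The shares in the opposite direction were thus near that plate's shares over all genes. The 7 genes past 1.5 times in the opposite direction are listed with their values. Each plate is 1 sample, so these differences were not tested. Exoc6, a subunit of the exocyst, had a log2 ratio of 3.14 in control cells and -2.72 in the other plate. Tex10 had 2.69 and -1.44, Tecpr1 2.67 and -0.94, and Taf4b 2.49 and -0.74. C1galt1, which starts the core of mucin-type glycans, had -3.21 and 1.08, Rbms3 -2.17 and 0.84, and Fadd, an adaptor of death receptors, -2.11 and 1.41. All 7 were read after thinning in under 40% of the control cells of the higher end.

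Reads of the eGFP row, which no comparison uses, appeared in control cells that carry tdTomato. They numbered 22 over 19 casein-high cells, 15 over 12 middle cells and 17 over 15 casein-low cells, with at most 2 reads in 1 cell.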

How the results depend on the processing

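No paired analysis was possible because each plate is 1 sample and both ends come from the same plate. Among 23 alternatives, the counts of genes past 1.5 times moved by over 1.5 times only when genes had to reach 20 CPM, to 1605 higher and 1642 lower. The difference in the median number of detected genes, -45.0 as given, was lowest in well columns 1 to 12, at -248. It turned furthest with at least 3 progenitor genes, where the medians were 3531 in casein-high and 3419 in casein-low cells. It also turned in well columns 13 to 24 (3421 and 3346) and with Ltf not used (3501 and 3437.5). The same held with no hormone-sensing gene (3332 and 3313), ranked by Csn3 alone (3381 and 3353) and by the mean of ranks (3421 and 3419). Of the named genes, 89 were past 1.5 times, of which 76 kept their direction in every alternative and 36 also stayed past 1.5 times. The floors of 20 CPM and 1 CPM could not change these counts of named genes, since they leave each gene's ratio as it was. Of 21 reversed values, 9 came from the ranking by Csn1s2a and Csn2 alone. There the log2 ratios were 0.52 for Palmd, 0.57 for Dsp, -1.03 for Hp, -0.40 for Elovl6, -0.14 for Cd14, -0.35 for Foxc1, -0.055 for Taf4b and -0.049 for Jun, and the basal markers had a median of 0.76. Dnajb11 was at 0.17 when ranked by Csn3 alone, and Hp at -0.33 when ranked by the mean of ranks. Dsp was at 0.044 in well columns 1 to 12 and Coro1a at 0.18 in columns 13 to 24. The basal median was 0.010 among genes at 20 CPM and 1.61 without hormone-sensing genes. With at least 3 progenitor genes Lyz2 was at 0.017 and Fcer1g at 0.84, and Fcer1g was at 0.82 with Ltf not used. Without Ptprc or basal cells Ptprc was at 0.23, Lyz2 at 0.15 and Fcer1g at 0.88, and of these that alternative selects on Ptprc. The cause of the other moves was not tested.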
